A study of Mus musculus with 8 samples.

Results

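The interaction between tumour-cell Jagged1 and the drug MRK-003 was examined in MC3T3-E1, an osteoblast line from mouse calvaria. It was taken from all 8 of the 8 arrays of the series: for each gene, the Jagged1 effect in DMSO (Jagged1 minus vector) minus the Jagged1 effect in MRK-003, computed within each slide and averaged over 2 slides. A positive interaction means that Jagged1 raised the gene more, or lowered it less, in DMSO than in MRK-003. The osteoblasts were grown together with tumour cells that either overexpressed Jagged1 or carried the control vector, and were treated with MRK-003, which inhibits gamma-secretase, or with its solvent, DMSO. The 4 groups were vector and Jagged1 co-cultures in DMSO and vector and Jagged1 co-cultures in MRK-003, with 2 biological replicates and 1 array per replicate. The fit removed the difference between slides that all groups shared. The p-values therefore rest on how the difference between replicates varied among the groups, and not on its full size. All groups shared the MC3T3-E1 line, the culture medium and growth with tumour cells, and no group held osteoblasts alone. The tumour line and its species, the dose and duration of MRK-003, and how osteoblast RNA was kept apart from tumour RNA were not stated in the sources used here. The series title names transcription changes that depend on Jagged1 and on Notch, and the interaction addresses which Jagged1 effects differ when gamma-secretase is inhibited.

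Jagged1 is a membrane ligand of the Notch receptors, displayed by one cell and read by its neighbour. After binding, the receptor is cut first by an ADAM protease and then by gamma-secretase, which frees the intracellular domain to enter the nucleus, join the DNA-binding protein RBPJ and switch on genes such as those of the Hes and Hey repressors. In cells of the osteoblast lineage, Notch activity is known to restrain maturation and to alter the signals that osteoblasts send to bone-resorbing osteoclasts.

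Levels below are the log2 ratio of the co-culture (Cy3) over a commercial mouse reference RNA (Cy5) on the same array, so a value is comparable between arrays for 1 gene but not between genes. Values for 1 group are listed as replicate 1, on slide 1, then replicate 2, on slide 2. The median Cy3 signal was 164.7 to 203.6 on slide 1 and 76.5 to 117 on slide 2. The share of spots with Cy3 well above background was 86.0% to 89.4% and 71.4% to 78.6%. Each group had the same array position on both slides, so position and group cannot be told apart. The 12 osteoblast markers had a mean level of 1.16 to 1.75 over the reference on the 8 arrays, 15 epithelial markers -1.78 to -1.63, 14 macrophage markers -2.24 to -2.11 and 10 osteoclast markers 0.15 to 0.38. All 12 osteoblast markers were well above background on all 8 arrays, but so were all 15 epithelial markers, 13 of 14 macrophage markers and all 10 osteoclast markers. In RNA from a whole culture, fewer cells of a type and less RNA per cell cannot be told apart.

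Of 23438 genes, 90 passed the interaction test (0.384%; limma with the slide as a block, Benjamini-Hochberg adjusted p under 0.05). The Jagged1 effect was more positive in DMSO for 46 genes (0.196%) and more negative for 44 (0.188%). Among those with a symbol in the RefSeq table, the positive side was led by Hey1, Cdh15, Mcam and Fap and the negative side by Tnfrsf19, Thsd4, Ccn3 and Cd34. Without the slide block 3 genes passed as more positive and 1 as more negative, 4 in all (0.0171%), with extreme local backgrounds left uncapped or with scale normalization between arrays none passed (1498 and 350 genes at an unadjusted p under 0.05), and with the scanner's processed signals 2 and 0. Leaving out 1 array gave 34 and 17 genes without Jagged1 DMSO replicate 1, 32 and 22 without Jagged1 DMSO replicate 2, 3 and 6 or 2 and 5 without vector DMSO replicate 1 or 2, 1 and 0 without vector MRK-003 replicate 1, vector MRK-003 replicate 2 or Jagged1 MRK-003 replicate 2, and none without Jagged1 MRK-003 replicate 1 (2179 genes at an unadjusted p under 0.05).

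The 90 interactions had 1 common shape. Among the 46 positive genes, Jagged1 minus vector was 0.91 to 3.76 in DMSO (median 1.28) but -0.23 to 0.31 in MRK-003 (median 0.01), with 26 values above 0 and 20 below. Among the 44 negative genes it was -2.73 to -0.72 in DMSO (median -1.17) and -0.27 to 0.25 in MRK-003 (median 0.02). No gene of either kind had a Jagged1 effect beyond 0.5 in size in MRK-003. Over all genes the 5th to 95th percentile of the Jagged1 effect ran from -0.42 to 0.35 in DMSO and from -0.15 to 0.16 in MRK-003. A gene that passed this test had to have unequal effects in DMSO and MRK-003, and both sets of values share arrays with the interaction, so they describe which groups carried it and add no test.

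**Figure D1:**
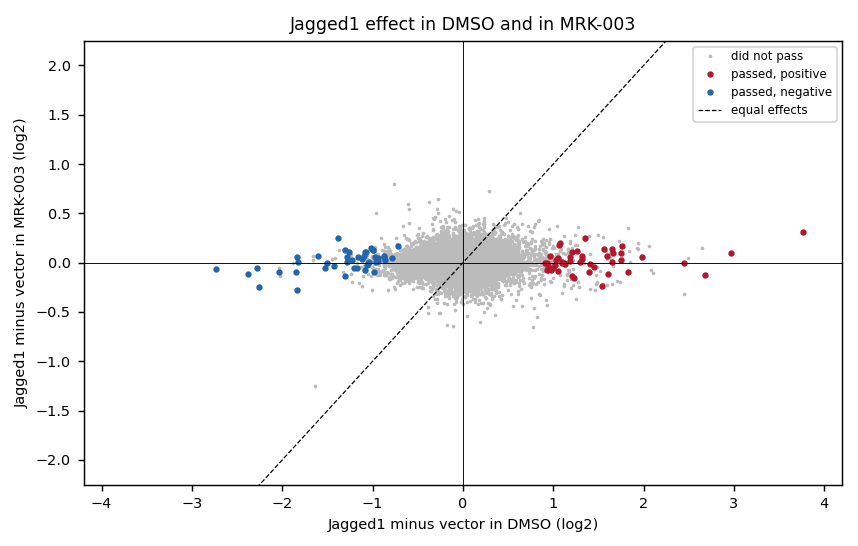
Jagged1 minus vector in DMSO (x axis, log2) against the same difference in MRK-003 (y axis, log2) for 23438 genes, 1 point per gene, with the 46 positive interactions in red, the 44 negative ones in blue and a dashed line where the effects are equal. The coloured points lie far from 0 along x and between -0.27 and 0.31 along y.

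Levels by array show the same arrangement. Both Jagged1 DMSO arrays were above the other 6 arrays for 45 of the 46 positive genes, as they were for 8.82% of all genes, and below the other 6 for 43 of the 44 negative genes, as for 12% of all genes. In the vector co-cultures, MRK-003 minus DMSO was below 0 for 39 of 46 positive genes (-1.84 to 0.25, median -0.36) and above 0 for 38 of 44 negative genes (-0.28 to 0.94, median 0.30), against a 5th to 95th percentile of -0.29 to 0.27 over all genes. In the Jagged1 co-cultures the same difference was -5.28 to -0.80 for the positive genes and 0.66 to 3.46 for the negative genes.

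**Figure D2:**
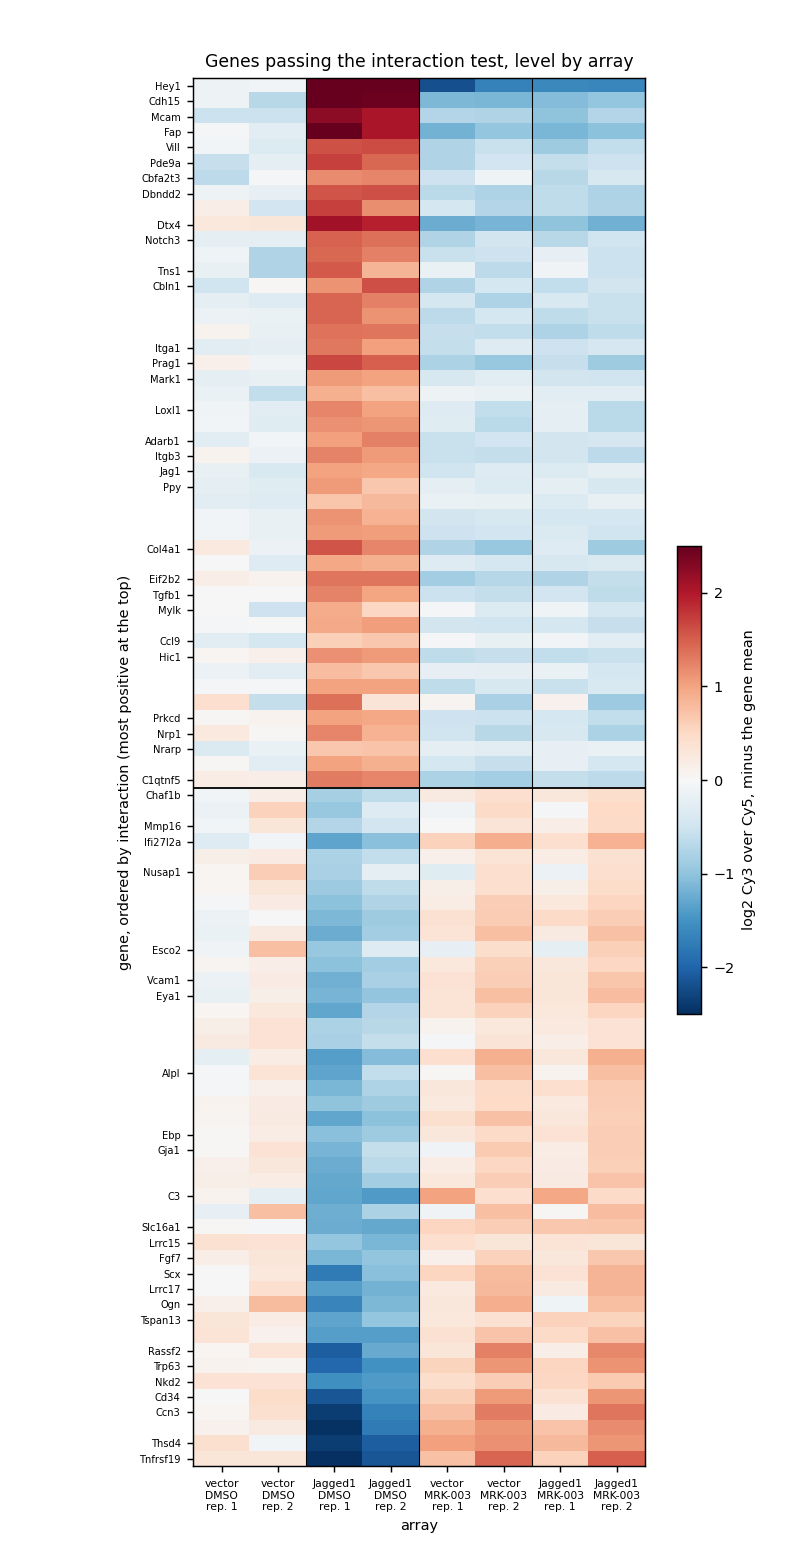
Level of the 90 genes that passed (rows, most positive interaction at the top) on each of 8 arrays (columns), as log2 Cy3 over Cy5 minus the gene's mean over the arrays; rows of genes described in the text are labelled. The Jagged1 DMSO columns stand apart from the other 6, above the mean for the upper 46 genes and below it for the lower 44.

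The most positive interaction that passed was that of Hey1, a transcriptional repressor and a direct Notch target. Hey1 was at -0.61 and -0.56 in vector DMSO, 3.29 and 3.05 in Jagged1 DMSO, -2.68 and -2.17 in vector MRK-003 and -2.11 and -2.12 in Jagged1 MRK-003. The Jagged1 DMSO arrays were highest, the vector DMSO arrays were in the middle, and the MRK-003 arrays were lowest, with both Jagged1 MRK-003 arrays just above both vector MRK-003 arrays. Jagged1 raised Hey1 by 3.76 ± 0.16 (SE, 13.5-fold, limma adjusted p = 0.000649) in DMSO and the difference was 0.31 ± 0.16 in MRK-003, an interaction of 3.45 ± 0.23 (limma adjusted p = 0.00927; 3.34 on slide 1 and 3.56 on slide 2). With vector cells MRK-003 lowered Hey1 by a log2 difference of -1.84 ± 0.16 (limma adjusted p = 0.045). The Hey1 probe lies on chromosome 3 at 8669867 to 8669926, minus strand (build mm7, per the file headers, as for every probe position here).

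Dtx4, an E3 ubiquitin ligase of the Deltex family that acts on Notch receptors, was at 0.61 and 0.66 in vector DMSO, 2.47 and 2.31 in Jagged1 DMSO, -0.88 and -0.81 in vector MRK-003 and -0.65 and -0.84 in Jagged1 MRK-003. Its order of groups was that of Hey1, with no overlap between Jagged1 DMSO, vector DMSO and the MRK-003 arrays. The interaction was 1.65 ± 0.14 (limma adjusted p = 0.0138), and MRK-003 lowered Dtx4 in the vector co-cultures too, by a log2 difference of -1.48 ± 0.10 (adjusted p = 0.0316). Its other 2 probes gave interactions of 1.50 and 1.09. The probe used lies on chromosome 19 at 12146568 to 12146627, minus strand.

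Notch3, a receptor whose own gene responds to Notch, was at -1.97 and -1.98 in vector DMSO, -0.28 and -0.38 in Jagged1 DMSO, -2.51 and -2.22 in vector MRK-003 and -2.45 and -2.26 in Jagged1 MRK-003. The Jagged1 DMSO arrays were clear of the other 6 and the vector DMSO arrays slightly above the MRK-003 arrays. The interaction was 1.64 ± 0.16 (limma adjusted p = 0.0232) and the same on both slides, 1.64. The probe lies on chromosome 17 at 30311822 to 30311881, minus strand.

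Nrarp, a small ankyrin-repeat protein that dampens Notch signalling, was dim. It was at -0.27 and -0.07 in vector DMSO, 0.77 and 0.81 in Jagged1 DMSO, -0.14 and -0.17 in vector MRK-003 and -0.12 and -0.07 in Jagged1 MRK-003, and only its Jagged1 DMSO values lay apart. Cy3 was well above background on both Jagged1 DMSO arrays, on 1 array each of the vector groups and on none of the Jagged1 MRK-003 arrays. Nrarp therefore entered the test only through Jagged1 DMSO, the group where it was high. In the Cy3 channel alone Jagged1 DMSO was at least 1.68-fold higher than Jagged1 MRK-003, a bound against the dim signal itself that is open to dye bias, and the fitted interaction was 0.90 ± 0.13 (limma adjusted p = 0.047), but 0.32 with uncapped backgrounds and 2.67 with the scanner's processed signals.

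Those 4 were the members of the Notch target list that passed, out of 24 measured, all of them in the positive direction. Of the 4, Nrarp entered the test only through Jagged1 DMSO, so the filter favoured its direction. Over all genes 0.196% passed as positive and 0.188% as negative, and these shares apply to every later count of list members that passed. The list's median interaction was 0.19 (0.19 on slide 1 and 0.22 on slide 2), beside a median of -0.01 over all genes. Hes1, the classical Notch-induced repressor, was at 1.34 and 1.80 in vector DMSO, 2.20 and 2.27 in Jagged1 DMSO, -0.03 and 0.46 in vector MRK-003 and 0.20 and 0.67 in Jagged1 MRK-003. MRK-003 minus DMSO was -1.36 ± 0.12 for Hes1 in the vector co-cultures and -1.80 ± 0.12 in the Jagged1 co-cultures (limma adjusted p = 0.045 and 0.00055). Its groups were ordered like those of Hey1, but its interaction of 0.44 ± 0.17 did not pass (limma adjusted p = 0.358) and was -0.13 under scale normalization. Nor did Heyl pass (0.36, adjusted p = 0.257), a relative of Hey1, or Notch1 (0.76, adjusted p = 0.128), a receptor. The cell-cycle gene Ccnd1, encoding cyclin D1, was at -0.49 (adjusted p = 0.242) and the transcription factor gene Myc at -0.06 (adjusted p = 0.965). The remaining 15 list members did not pass either and lay between -0.30 (Gmpr) and 0.46 (Snai2).

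Among 39 measured genes of the Notch machinery, 3 passed, all positive, beside 0.196% of all genes: Dtx4, Notch3 and Jag1 (median of the list 0.08). Jag1, the ligand gene itself, was at 2.15 and 1.95 in vector DMSO, 3.33 and 3.30 in Jagged1 DMSO, 1.83 and 2.01 in vector MRK-003 and 1.99 and 2.09 in Jagged1 MRK-003. Its Jagged1 DMSO arrays were high and the other 6 overlapped, so in MRK-003 the mouse Jag1 probe did not separate the co-cultures labelled Jagged1 from those labelled vector (0.12 ± 0.11). Whether this probe reads the ligand that the tumour cells were made to express was not stated in the sources used here, so it does not check the labels. The interaction was 1.15 ± 0.16 (limma adjusted p = 0.0427), and a second, dimmer Jag1 probe gave 0.55. Under scale normalization the interaction of Jag1 was 0.25. The probe used lies on chromosome 2 at 136822550 to 136822609, minus strand. Other machinery genes had values on both sides of 0, from -0.64 for Adam10, the protease of the first receptor cut, to 1.00 for Aph1a, a gamma-secretase subunit, and neither passed (adjusted p = 0.198 and 0.0984).

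**Figure D3:**
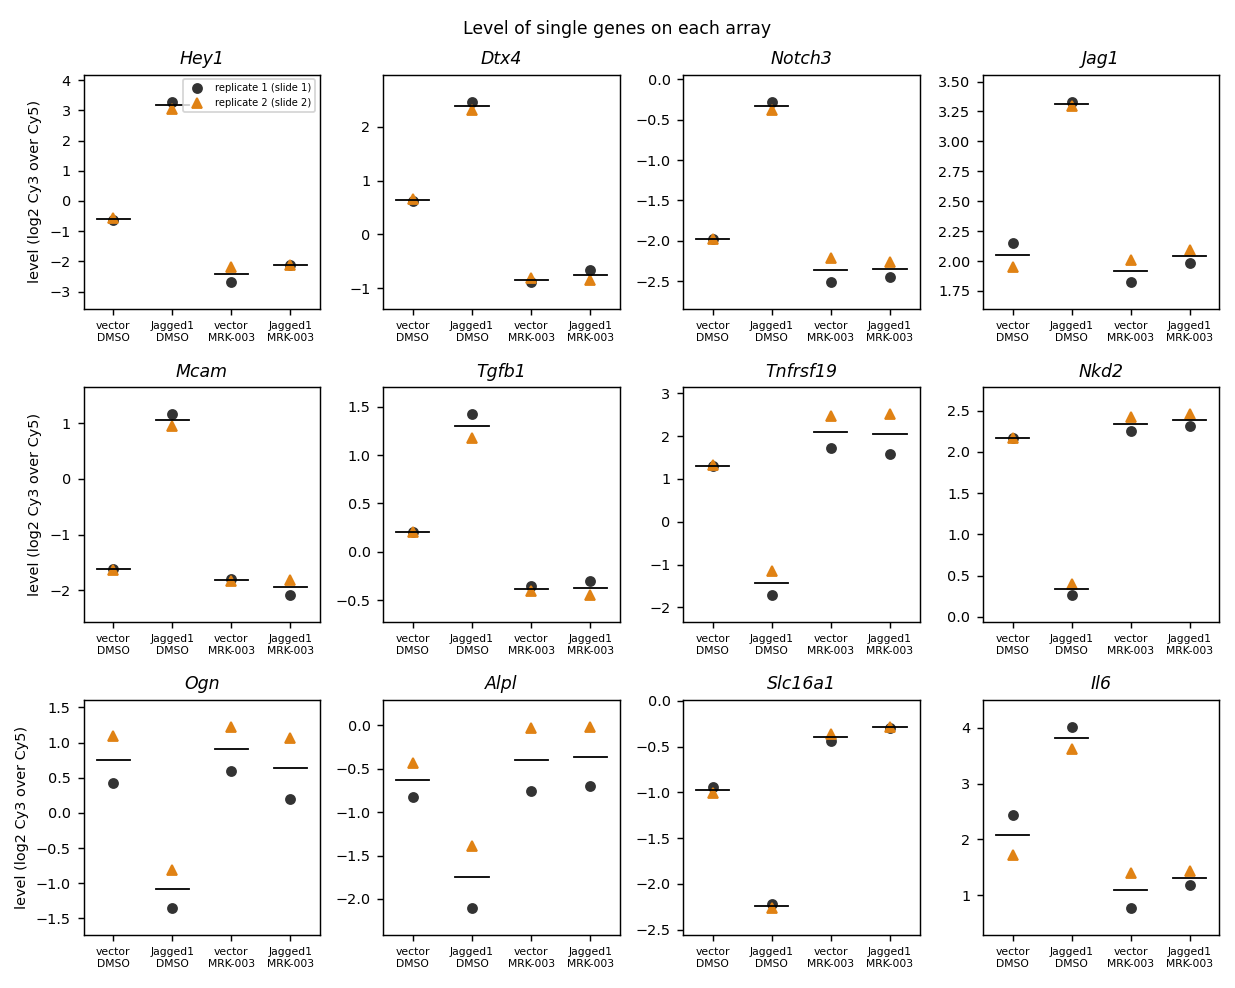
Level (log2 Cy3 over Cy5) of 12 genes on each array, by group, with replicate 1 (slide 1) as circles, replicate 2 (slide 2) as triangles and the group mean as a bar; the y axis differs between panels. In 11 panels the Jagged1 DMSO arrays lie apart from the other 6 on the side of the interaction, as they also do for Il6, the panel whose interaction did not pass.

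RefSeq promoter windows were searched for letters that RBPJ is known to bind, because the positive genes were high on the same arrays. In the table of RefSeq starts (build GRCm38.p6), 57 of the 90 genes had 86 windows of 250 bases before a start, and Hey1 and Dtx4 were not among the 57. GTGGGAA, on either strand, was in none of the 37 windows of positive genes or the 49 of negative genes. It was in 5.42% of all 32851 windows and in 5.27% of the 16523 windows of genes tested. The shorter TGGGAA, which every GTGGGAA contains, was in 5 of 37 windows of positive genes (13.5%) and 12 of 49 of negative genes (24.5%). It was in 21.6% of all windows and in 20.6% of those of genes tested. The matching windows came from 5 of 28 positive genes and 9 of 29 negative genes. A match was held by 6510 of all 27025 genes with a window, and by 3120 of the 13204 that were tested. Windows of 1 gene can overlap and hold the same match, as for Eml1. A match is a run of letters and not a site of binding, and the absence of one says nothing about sequence outside these windows. Shown are the windows of Notch3 (chr17:32166891-32167140, minus strand), a Notch target with no match, of Tns1 (chr1:74124549-74124798, minus strand) and Cbfa2t3 (chr8:122699110-122699359, minus strand, 1 of its 2 windows), positive genes with a match, and of Nkd2 (chr13:73847632-73847881, minus strand), a negative gene with a match. Each runs from 5′ to 3′ towards the start, and capitals mark TGGGAA or its reverse complement.
Notch3: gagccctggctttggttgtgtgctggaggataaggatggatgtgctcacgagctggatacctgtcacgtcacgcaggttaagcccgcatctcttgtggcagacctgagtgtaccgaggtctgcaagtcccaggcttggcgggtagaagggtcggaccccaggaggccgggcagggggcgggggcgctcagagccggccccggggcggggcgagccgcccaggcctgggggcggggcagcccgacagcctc
Tns1: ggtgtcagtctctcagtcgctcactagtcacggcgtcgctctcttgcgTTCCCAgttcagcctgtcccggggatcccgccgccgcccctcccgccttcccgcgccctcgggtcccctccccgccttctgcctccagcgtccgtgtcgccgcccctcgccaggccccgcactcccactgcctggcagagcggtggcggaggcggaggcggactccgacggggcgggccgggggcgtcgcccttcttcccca
Cbfa2t3: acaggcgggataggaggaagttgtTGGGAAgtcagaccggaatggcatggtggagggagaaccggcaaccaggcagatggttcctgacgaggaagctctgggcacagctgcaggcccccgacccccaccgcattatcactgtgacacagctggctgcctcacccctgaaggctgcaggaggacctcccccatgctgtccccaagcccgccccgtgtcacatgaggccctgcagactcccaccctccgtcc
Nkd2: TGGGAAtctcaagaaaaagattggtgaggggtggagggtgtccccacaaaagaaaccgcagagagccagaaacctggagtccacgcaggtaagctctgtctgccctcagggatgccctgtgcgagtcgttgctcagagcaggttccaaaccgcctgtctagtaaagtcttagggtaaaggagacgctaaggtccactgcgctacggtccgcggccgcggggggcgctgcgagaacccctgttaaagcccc

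After Hey1, the most positive interactions were those of Cdh15, Mcam and Fap. Cdh15, encoding M-cadherin, known from muscle precursors, was at 0.21 and -0.36 in vector DMSO, 3.02 and 2.77 in Jagged1 DMSO, -0.78 and -0.81 in vector MRK-003 and -0.76 and -0.64 in Jagged1 MRK-003. Its interaction was 2.88 ± 0.22 (limma adjusted p = 0.0138), and Cdh15 rose 7.85-fold with Jagged1 in DMSO (adjusted p = 0.000889). Mcam, an adhesion molecule of the immunoglobulin family found on perivascular mesenchymal cells, was at -1.62 and -1.63, 1.16 and 0.95, -1.81 and -1.83 and -2.08 and -1.81 in the same order of groups. The other 6 Mcam arrays lay close together, well below both Jagged1 DMSO arrays. Its interaction was 2.81 ± 0.17 (limma adjusted p = 0.00927), and its other probe gave a smaller 0.68.

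Fap, a membrane serine protease of activated fibroblasts, was at 0.51 and 0.25 in vector DMSO, 3.08 and 2.57 in Jagged1 DMSO, -0.65 and -0.44 in vector MRK-003 and -0.60 and -0.49 in Jagged1 MRK-003. Cy3 for Fap was well above background on only 1 array of each MRK-003 group, so its interaction of 2.45 ± 0.24 (limma adjusted p = 0.0238) rests partly on dim signals. Tns1, a focal-adhesion protein, had an interaction of 1.55 (adjusted p = 0.0138). Its other 4 probes gave 1.57, 0.97, 0.49 and -0.02. Mcam, Fap and Cdh15 probes lie on chromosome 9 at 44076783 to 44076842, plus strand, on chromosome 2 at 62432993 to 62433052, minus strand, and on chromosome 8 at 121508826 to 121508885, plus strand.

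Further positive genes that were well above background on all 8 arrays were Vill (1.92), an actin-binding villin relative, Pde9a (1.92), a cyclic GMP phosphodiesterase, Cbfa2t3 (1.78), a transcriptional corepressor, Dbndd2 (1.72), a dysbindin domain protein, and Cbln1 (1.54), a secreted protein known from synapses. Their limma adjusted p values ran from 0.00927 (Dbndd2) to 0.0275 (Pde9a and Cbfa2t3), and in each the interaction had the same sign on both slides. The other Cbln1 probe gave 0.50. The dim positive genes Mark1 (1.38), a kinase of microtubule-binding proteins, and Ppy (1.15), the pancreatic polypeptide gene, were well above background on both arrays of Jagged1 DMSO and on 1 array of each other group. Mark1 and Ppy therefore entered the test only through the group where they were high.

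Secreted factors that osteoblasts use to act on osteoclasts gave 2 genes that passed out of 22 measured, both positive, beside 0.196% of all genes (median of the list 0.14). Tgfb1, encoding a growth factor stored in bone matrix, was at 0.21 and 0.21 in vector DMSO, 1.42 and 1.18 in Jagged1 DMSO, -0.35 and -0.41 in vector MRK-003 and -0.30 and -0.44 in Jagged1 MRK-003. The 3 levels of Jagged1 DMSO, vector DMSO and MRK-003 did not overlap, and the interaction was 1.08 ± 0.13 (limma adjusted p = 0.0336). Ccl9, a chemokine that draws osteoclast precursors, was at -1.46 and -1.63, -0.60 and -0.51, -1.22 and -1.37 and -1.25 and -1.46, and its interaction was 1.05 ± 0.14 (limma adjusted p = 0.0427). On each slide its vector DMSO array was the lowest, where that of Tgfb1 was second to Jagged1 DMSO. Ccl9 was also the 1 gene that passed among 23 cytokines and chemokines.

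Il6, a cytokine that promotes osteoclast formation, was at 2.45 and 1.73 in vector DMSO, 4.01 and 3.62 in Jagged1 DMSO, 0.78 and 1.41 in vector MRK-003 and 1.19 and 1.44 in Jagged1 MRK-003. Both Jagged1 DMSO arrays were the highest, yet the interaction of 1.51 ± 0.41 did not pass (limma adjusted p = 0.217; 1.15 and 1.86 on the 2 slides). Ccn2, a matricellular protein also known as connective tissue growth factor, was at -0.26 and -0.93, 2.24 and 1.85, -1.13 and -0.05 and -0.76 and -0.13. Both Jagged1 DMSO arrays were above the other 6, but with an SE of 0.55, against a median SE of 0.14 over all genes, the interaction of 2.49 did not pass (limma adjusted p = 0.149). Ccn2 and Inhba, encoding the activin A subunit (1.15, adjusted p = 0.0695), were the largest values in the TGF-beta and BMP response list, in which none of 22 genes passed by limma (5 higher and 2 lower at an unadjusted p under 0.05, beside 5.15% and 7.3% of all genes).

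The most negative interaction that passed was that of Tnfrsf19, a TNF-receptor family member induced by Wnt signalling. It was at 1.31 and 1.32 in vector DMSO, -1.70 and -1.14 in Jagged1 DMSO, 1.73 and 2.47 in vector MRK-003 and 1.58 and 2.51 in Jagged1 MRK-003. Both Jagged1 DMSO arrays were far below the other 6, and the MRK-003 arrays were the highest on each slide. Tnfrsf19 was 6.65-fold lower with Jagged1 in DMSO (limma adjusted p = 0.00233), and the interaction was -2.67 ± 0.28 (limma adjusted p = 0.0244).

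Nkd2, which inhibits Wnt signalling by binding Dishevelled, had among the tightest values of the 90 genes: 2.17 and 2.18 in vector DMSO, 0.27 and 0.40 in Jagged1 DMSO, 2.25 and 2.42 in vector MRK-003 and 2.32 and 2.46 in Jagged1 MRK-003. Its interaction was -1.89 ± 0.12 (limma adjusted p = 0.00927), and its other, dimmer probe gave -0.71. Tnfrsf19 and Nkd2 were the 2 of 19 measured Wnt targets that passed, beside 0.188% of all genes as negative, and none passed as positive. At an unadjusted limma p under 0.05, 2 of the 19 were higher and 7 lower, beside 5.15% and 7.3% of all genes. The median of the list was -0.09, and -0.58 to 0.01 over 23 alternatives, the extremes being scale normalization and leaving out vector DMSO replicate 1. The Wnt ligand gene Wnt10a (-1.89, adjusted p = 0.0756), the receptor-degrading ligase Rnf43 (-1.07, adjusted p = 0.0984), the osteoblast regulator Twist1 (-0.75, adjusted p = 0.0661) and the feedback gene Axin2 (-1.20, adjusted p = 0.275) did not pass, and Ccn4, a secreted Wnt target, was at 0.96 (adjusted p = 0.204). The Tnfrsf19 and Nkd2 probes lie on chromosome 14 at 55831784 to 55831843 and on chromosome 13 at 70753431 to 70753490, both on the minus strand.

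Genes of osteoblast maturation and bone matrix gave 2 that passed among 29 measured, both negative, beside 0.188% of all genes. Of the 29 interactions, 12 were above 0 and 17 below (median -0.03, and -0.67 under scale normalization). At an unadjusted limma p under 0.05, 1 was higher and 9 lower, beside 5.15% and 7.3% of all genes. Alpl, the alkaline phosphatase that frees phosphate for mineral, was at -0.82 and -0.44 in vector DMSO, -2.10 and -1.39 in Jagged1 DMSO, -0.76 and -0.03 in vector MRK-003 and -0.70 and -0.02 in Jagged1 MRK-003. Every replicate 2 array was above its replicate 1 partner, and on each slide the Jagged1 DMSO array was the lowest, which gave an interaction of -1.15 ± 0.15 (limma adjusted p = 0.0406), and of -0.48 with uncapped backgrounds. Ogn, osteoglycin, a small leucine-rich proteoglycan of bone matrix, was at 0.42 and 1.10, -1.35 and -0.81, 0.60 and 1.22 and 0.20 and 1.06, with an interaction of -1.56 ± 0.14 (adjusted p = 0.0166). The master regulators Runx2 (-0.36, adjusted p = 0.631) and Sp7 (-0.58, adjusted p = 0.59), the collagen gene Col1a1 (0.13, adjusted p = 0.817) and the osteocalcin gene Bglap (0.05, adjusted p = 0.926) did not pass. Alpl and Ogn probes lie on chromosome 4 at 137120184 to 137120243, minus strand, and on chromosome 13 at 49108057 to 49108116, plus strand.

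After Tnfrsf19, the most negative interactions among named genes were those of Thsd4, Ccn3 and Cd34. Thsd4, which promotes assembly of fibrillin microfibrils, was at 2.72 and 2.24 in vector DMSO, -0.06 and 0.26 in Jagged1 DMSO, 3.33 and 3.45 in vector MRK-003 and 3.13 and 3.42 in Jagged1 MRK-003, an interaction of -2.26 ± 0.26 (limma adjusted p = 0.0307), where its other, dimmer probe gave -1.20. Ccn3, a matricellular relative of Ccn2, was at 1.07 and 1.42, -1.35 and -0.67, 1.76 and 2.33 and 1.22 and 2.36, an interaction of -2.004 ± 0.24 (adjusted p = 0.0341), opposite in sign to that of Ccn2. Cd34, a sialomucin of progenitor and stromal cells, was at -1.59 and -1.12, -3.73 and -3.06, -1.003 and -0.52 and -1.21 and -0.49, an interaction of -1.95 ± 0.14 (adjusted p = 0.00927). In all 3 genes the Jagged1 DMSO arrays were lowest and on each slide vector DMSO was below both MRK-003 arrays. Scx, the tendon transcription factor scleraxis (-1.48), Fgf7, a growth factor made by mesenchyme for epithelium (-1.43), Lrrc17, a secreted leucine-rich repeat protein (-1.50), Tspan13, a tetraspanin (-1.64), and Rassf2, a Ras-association domain protein (-1.75), completed the negative genes of this rank with a RefSeq symbol, with limma adjusted p values from 0.0244 (Tspan13) to 0.0499 (Rassf2). The other Rassf2 probe, with signal on all 8 arrays, gave -0.29.

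Trp63, a p53-family transcription factor and an epithelial marker, was at 2.67 and 2.65 in vector DMSO, 0.61 and 1.07 in Jagged1 DMSO, 3.13 and 3.67 in vector MRK-003 and 3.11 and 3.70 in Jagged1 MRK-003. The probe used, on chromosome 16 at 25553466 to 25553525, plus strand, gave an interaction of -1.83 ± 0.21 (limma adjusted p = 0.0307). Its other 2 probes gave -0.34 (with signal on 4 arrays) and 0.14 (with signal on all 8), so the call rests on this probe, and the mean of the probes gave -0.67. Of the 15 epithelial markers measured it alone passed, 10 of the 15 interactions were above 0, beside 47.5% of all genes, and the list's median was 0.11. Of the osteoclast markers 1 passed the interaction test, Itgb3, an integrin subunit (1.17, limma adjusted p = 0.0244). No macrophage marker passed, with 1 higher and 0 lower at an unadjusted p under 0.05, beside 5.15% and 7.3% of all genes.

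Metabolic lists gave 1 gene each that passed, both negative. Slc16a1, the monocarboxylate transporter for lactate and pyruvate, was at -0.94 and -1.01 in vector DMSO, -2.22 and -2.26 in Jagged1 DMSO, -0.44 and -0.36 in vector MRK-003 and -0.29 and -0.29 in Jagged1 MRK-003. The replicates nearly coincided, the Jagged1 DMSO arrays were lowest and the MRK-003 arrays highest, and the interaction was -1.37 ± 0.12 (limma adjusted p = 0.0138). Its other probes gave -1.37 and -0.18. It was the 1 gene that passed among 20 of hypoxia and glycolysis, in which the growth factor gene Vegfa was at 0.86 (adjusted p = 0.0915). Ebp, a sterol isomerase, was at 0.44 and 0.61, -0.63 and -0.47, 0.71 and 0.89 and 0.78 and 1.03. Its interaction of -1.18 ± 0.11 (limma adjusted p = 0.0218) was the 1 that passed among 25 cholesterol synthesis genes. Of the 25, 3 interactions were positive and 22 negative (median -0.35), where 47.5% of all genes were positive. At an unadjusted p under 0.05, 0 were higher and 13 lower, beside 5.15% and 7.3% of all genes.

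Genes of DNA replication and the cell cycle were lower in Jagged1 DMSO without passing. None of the 34 measured genes passed by limma, and all 34 interactions were negative, from -0.95 (Ccne2, a cyclin that starts S phase) to -0.14 (E2f1, a transcription factor of the same transition), with a median of -0.52 (-0.59 on slide 1 and -0.51 on slide 2) beside -0.01 over all genes. Over all genes, 47.5% of interactions were positive. At an unadjusted p under 0.05, 26 of the 34 were negative, beside 7.3% of all genes. The smallest p values were those of Mcm6, a helicase subunit (-0.70 ± 0.12, adjusted p = 0.0784), Birc5, survivin (-0.71 ± 0.12, adjusted p = 0.0845), and Pcna, the polymerase clamp (-0.73 ± 0.13, adjusted p = 0.0894). Pcna was at -0.53 and -0.21 in vector DMSO, -1.12 and -1.03 in Jagged1 DMSO, -0.35 and -0.06 in vector MRK-003 and -0.29 and -0.06 in Jagged1 MRK-003, with the Jagged1 DMSO arrays lowest. The reference channel (Cy5) of Pcna was saturated on 4 arrays and a local background was capped on 1, which limits these ratios. The list's median Jagged1 effect was -0.51 in DMSO and 0.00 in MRK-003. The share of tumour and osteoblast cells or RNA in each culture was not measured, and its part in this was not tested.

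**Figure D4:**
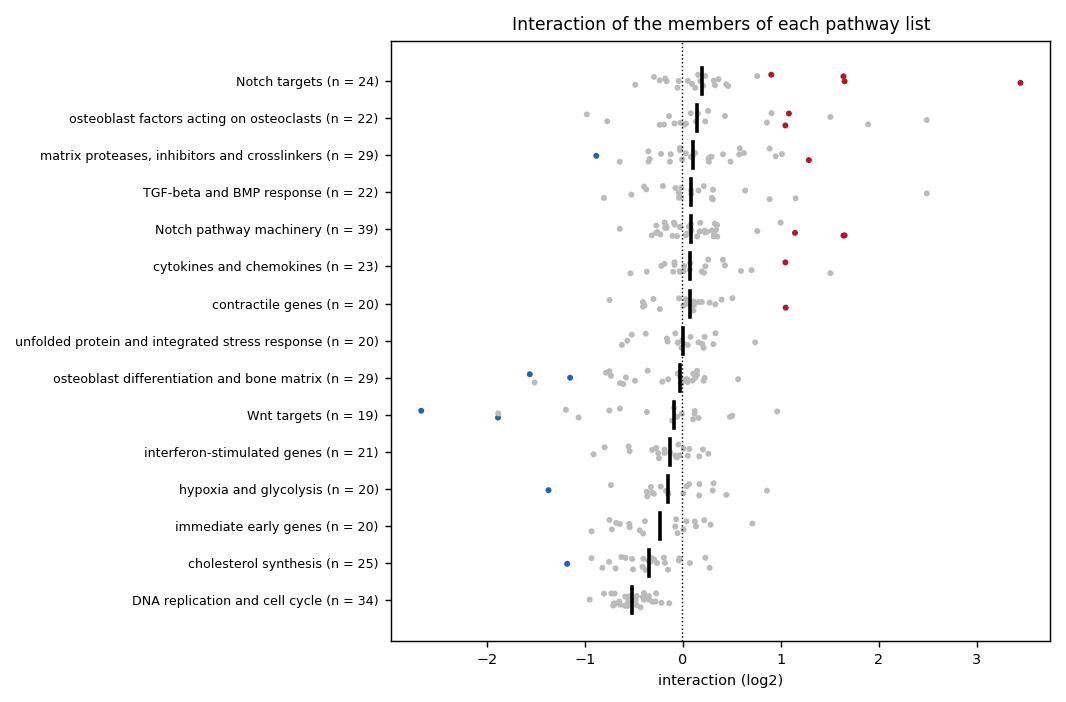
Interaction (log2, x axis) of every measured member of 15 pathway lists, 1 point per gene and 1 row per list, with the number measured in brackets, a black bar at the list's median, red points for positive and blue for negative genes that passed and grey for the others. The DNA replication row lies wholly below 0 with a median of -0.52, and the Notch target row carries the largest positive value, Hey1 at 3.45.

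Contractile and matrix lists were mixed. Mylk, myosin light chain kinase, passed among 20 contractile genes (1.05 ± 0.13, limma adjusted p = 0.0356), and its other probes gave 1.15 and 0.06. Among 29 matrix proteases, inhibitors and crosslinkers, Loxl1, a lysyl oxidase of elastic fibres, was positive (1.29 ± 0.13, adjusted p = 0.0239) and Mmp16, a membrane-bound metalloproteinase, negative (-0.88 ± 0.12, adjusted p = 0.0395, and -0.45 with uncapped backgrounds). No gene passed by limma among 20 immediate early genes (0 higher and 4 lower at an unadjusted p under 0.05), 20 of the unfolded protein and integrated stress response (1 and 3) or 21 interferon-stimulated genes (0 and 4). Over all genes the unadjusted shares were 5.15% higher and 7.3% lower. The interferon-stimulated gene nearest to passing was Ifit2, an RNA-binding antiviral protein (-0.91, adjusted p = 0.0784), and the largest immediate early value was that of the AP-1 subunit Jun (-0.93, adjusted p = 0.302).

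The slides gave separate estimates of every interaction from arrays they did not share. Over all genes these correlated at r = 0.444 across 23438 genes, which are not independent replicates, and 62.0% had the same sign on both. All 90 genes that passed had the same sign on both slides, which the test itself favours. For genes with more than 1 probe, 39 of the 90, the other 54 probes are a second reading from the same RNA: 49 had the same sign and 35 were past 0.5 in the same direction.

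**Figure D5:**
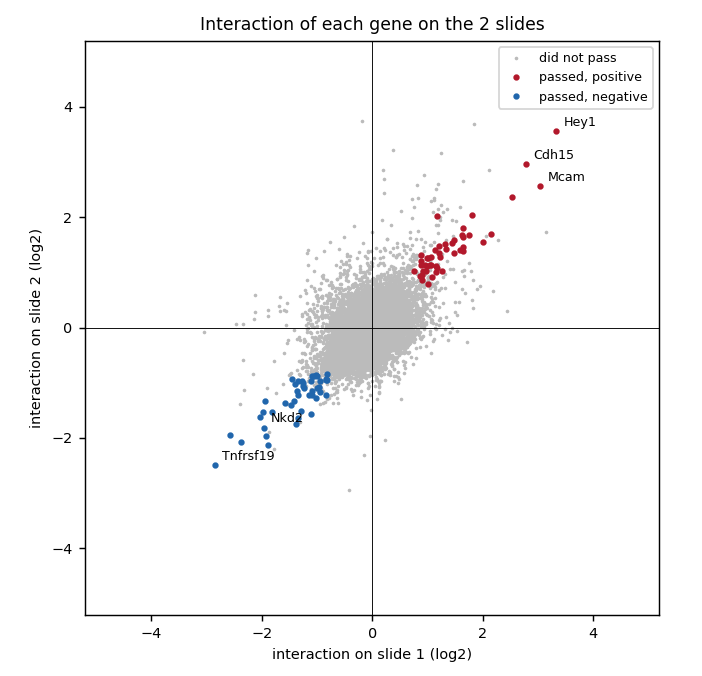
Interaction of each of 23438 genes on slide 1 (x axis, log2) against slide 2 (y axis, log2), with the 46 positive and 44 negative genes that passed in red and blue. The coloured points lie near the diagonal in the upper right and lower left, from Tnfrsf19 at -2.86 and -2.49 to Hey1 at 3.34 and 3.56.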

How the data were processed

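Gene expression was measured on 8 two-colour Agilent mouse arrays, 1 per co-culture, with the co-culture always in Cy3 and a reference RNA in Cy5. Per the file headers, the authors used Agilent Feature Extraction 9.5.3.1, and probe positions are on build mm7. The mean signals and median local backgrounds were used as deposited intensity values without normalization, with the scanner's processed signals as an alternative. The deposited log10 ratio (Cy5 over Cy3) served as a check of direction. The deposited 0 or 1 spot marks gave outliers, saturation and signal well above background. The log2 table deposited by the authors matched log2 Cy3 over Cy5 of the processed signals plus a constant per array (100% of probes within 0.02). Its column medians (replicates 1 and 2) were 0.125 and 0.203 with vector DMSO, 0.156 and 0.182 with Jagged1 DMSO, 0.125 and 0.170 with vector cells in MRK-003, and 0.176 and 0.167 with Jagged1 cells in MRK-003, so scale, centring and direction were known.

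Local backgrounds over 2 times the array median were set to the median (31 to 84 spots per array), normexp with an offset of 50 corrected the background, and loess, with 1639 control spots at no weight, normalized the ratios of each array. Of 41174 probes, 303 were dropped for outlier marks and 7811 as dim, and 33060 remained. Names came from RefSeq accessions for 23075 probes and from the files for 18099. Each of 23438 genes was read from its brightest probe, and 6960 had more than 1. limma 3.58.1 in R 4.3.3 fitted 4 group means with the slide as a block (3 residual degrees of freedom). Replicate 1 of every group lay on slide 1 and replicate 2 on slide 2, and the deviations of same-slide arrays correlated at 0.37 to 0.85. Replicate number and slide are the same split, so these correlations cannot tell a slide effect from a pairing of the cultures. The small number of arrays limits the precision.

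The members, lists and tests were chosen with earlier results of these data known. Named genes were the 12 most positive and 12 most negative with a RefSeq symbol that passed with signal on all 8 arrays, 4 dim positive ones (no dim negative one passed), all Notch targets with Jag1, Il6 and Ccn2, and the 3 smallest p values of each other list, of which 1 gene is not reported here. Other genes, such as Itgb3, Wnt10a, Rnf43, Axin2, Runx2, Sp7, Col1a1, Bglap, Ccne2, E2f1, Adam10 and Aph1a, were named after their values were seen. Alternatives are given in the closing section. Array probes are given by position only.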

Additional observations from a re-analysis of the deposited data

Results flagged for a closer look

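Each result here is a Jagged1 effect that differed between DMSO and MRK-003 by the interaction term of limma, after Benjamini-Hochberg adjustment. That was so for 46 genes with a more positive effect in DMSO and 44 with a more negative one. Among the positive genes named next, Mark1, Ppy and Nrarp were dim and entered the test only through Jagged1 DMSO, where they were high. Of the named genes, those with positive interactions (log2) were Hey1 (3.45), Cdh15 (2.88), Mcam (2.81), Fap (2.45), Vill (1.92), Pde9a (1.92), Cbfa2t3 (1.78), Dbndd2 (1.72), Dtx4 (1.65), Notch3 (1.64), Tns1 (1.55), Cbln1 (1.54), Mark1 (1.38), Loxl1 (1.29), Ppy (1.15), Jag1 (1.15), Tgfb1 (1.08), Mylk (1.05), Ccl9 (1.05) and Nrarp (0.90). Those with negative interactions were Tnfrsf19 (-2.67), Thsd4 (-2.26), Ccn3 (-2.004), Cd34 (-1.95), Nkd2 (-1.89), Trp63 (-1.83), Rassf2 (-1.75), Tspan13 (-1.64), Ogn (-1.56), Lrrc17 (-1.50), Scx (-1.48), Fgf7 (-1.43), Slc16a1 (-1.37), Ebp (-1.18), Alpl (-1.15) and Mmp16 (-0.88).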

How the results depend on the processing

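All 90 genes kept the direction of their interaction under each of the 23 alternatives in which they were tested (86 of them where only probes with signal on all 8 arrays were kept), and their median size stayed between 1.03 and 1.37. The counts that passed did not hold. The positive and negative counts, 46 and 44, became 3 and 1 with no replicate block, 0 and 0 with uncapped backgrounds (1498 genes at an unadjusted limma p under 0.05), 0 and 0 with scale normalization (350), 2 and 0 with the scanner's processed signals and with the authors' deposited value table, 25 and 19 with Cy3 alone, and 27 and 15 with an intensity trend and robust prior. With neither block nor cap, an alternative chosen after seeing the data, they were 0 and 0 (515). Leaving out 1 array gave 0 to 34 and 0 to 22, with 2179 genes at an unadjusted p under 0.05 where both were 0. The cause of these losses was not tested. Both counts stayed within 1.5 times of the first with a cap at 3 times the median, an offset of 16, median centring, either dim-probe filter, the mean of probes and outliers kept. None of the 37 genes picked for naming that passed reversed. Of 47 that did not pass, 11 changed sign somewhere: with uncapped backgrounds, with or without the block, Hes3 (-0.00994) and Efnb2 (0.26); with scale normalization Hes1 (-0.13), Lfng (-0.16), Efnb2 (0.52), Myc (0.34), Snai2 (-0.034) and Bnip3 (0.14); with Cy3 alone Hes7 (0.027), Nrip2 (0.18) and Il2ra (-0.029); and with the authors' deposited value table Hes3 (-0.011). Leaving out 1 array, values ran from -0.62 to 0.15 for Efnb2, -0.34 to 0.23 for Myc, -0.41 to 0.32 for Id4, -0.37 to 0.0048 for Nrip2, -0.11 to 0.57 for Lfng and -0.071 to 0.17 for Hes3. Single genes moved further than the median of the 90. Some sizes changed by a factor of more than 1.5. Smaller with uncapped backgrounds were Fap (1.26), Mark1 (0.57), Ppy (0.46), Nrarp (0.32), Tspan13 (-0.82), Alpl (-0.48) and Mmp16 (-0.45). Smaller with scale normalization were Jag1 (0.25), Cbln1 (0.96), Mylk (0.67), Cd34 (-1.28), Tspan13 (-0.81) and Slc16a1 (-0.90), and Fgf7 (-2.33) was larger. Smaller with the mean of probes were Mcam (1.74), Tns1 (0.91), Cbln1 (1.02), Trp63 (-0.67) and Rassf2 (-1.02). Larger with the scanner's processed signals were Cbfa2t3 (2.91), Mark1 (2.96), Ppy (2.18) and Nrarp (2.67), with like values from the authors' deposited value table. Nrarp was also larger with an offset of 16 (1.40). The list medians of Notch targets (0.15 to 0.28), DNA replication (-0.65 to -0.32) and cholesterol synthesis (-0.49 to -0.31) kept their sign in all 24 settings. Others moved widely, most under scale normalization: osteoblast maturation from -0.03 to -0.67, Wnt targets from -0.09 to -0.58, cytokines from 0.07 to 0.47, hypoxia and glycolysis from -0.15 to 0.47, interferon-stimulated genes from -0.13 to 0.30, the stress response from -0.00083 to 0.42, matrix proteases from 0.10 to -0.18, epithelial markers from 0.11 to 0.56 and macrophage markers from 0.15 to 1.06. The median of immediate early genes, -0.23, ran from -0.40 to 0.099.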

Other observations

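Further genes among the 90 were chosen here after their values were seen. On the positive side were the integrin subunit Itga1 (1.42 ± 0.19, SE; limma adjusted p = 0.0427), whose 3 other probes gave 1.18, 1.07 and 0.93, the basement membrane collagen gene Col4a1 (1.10, adjusted p = 0.0427), the co-receptor gene Nrp1 (0.91, adjusted p = 0.0455; other probes 0.71 and 0.31), the transcriptional repressor gene Hic1 (1.00, adjusted p = 0.0336), the kinase gene Prkcd (0.93, adjusted p = 0.0427), and Adarb1, an RNA-editing adenosine deaminase (1.25, adjusted p = 0.0239), whose other probes gave 2.04 and 1.01. Eif2b2, a subunit of the exchange factor for the initiation factor eIF2, was at 1.09 (adjusted p = 0.0356).

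On the negative side were Gja1, the gap junction protein connexin 43 of osteoblasts (-1.19 ± 0.16, SE; limma adjusted p = 0.0427), Vcam1, a leukocyte adhesion molecule (-1.05, adjusted p = 0.0275), Lrrc15, a leucine-rich repeat membrane protein of stromal cells (-1.40, adjusted p = 0.0138), whose other probe, with signal on all 8 arrays, gave 0.094, and the transcriptional coactivator Eya1 (-1.05, adjusted p = 0.0427; other probe -0.64). Complement C3 was at -1.29 (adjusted p = 0.0427), but its other probe gave -0.12 and it was the 1 gene of the 90 with a capped background. Further single genes that passed were Chaf1b, a chromatin assembly subunit (-0.83, adjusted p = 0.0427), Esco2, a cohesin acetyltransferase (-1.03, adjusted p = 0.036), and Nusap1, a spindle protein (-0.94, adjusted p = 0.0386; other probe -0.38).

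In the vector co-cultures, MRK-003 minus DMSO also differed from 0 for Prag1, a pseudokinase (-0.89, limma adjusted p = 0.0463), C1qtnf5 (-1.001, adjusted p = 0.045) and, in the other direction, the interferon-inducible Ifi27l2a (0.94, adjusted p = 0.0463), each of which also passed the interaction test.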
